A study of Mus musculus with 24 samples.

Results

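A set of 38 genes of the cell cycle was followed through nuclei of the mouse brain. The 38 were listed by name, and each was found once by its symbol among the 32288 genes counted. By role they fall into 7 groups. *Mcm2*, *Mcm3*, *Mcm4*, *Mcm5*, *Mcm6*, *Pola1*, *Rrm1* and *Rrm2* license origins or make DNA. *Brip1*, *Rad51b*, *Atad2*, *Ezh2* and *Hells* act in DNA repair or on chromatin. *Mki67*, *Top2a*, *Smc2* and *Smc4* shape chromosomes. *Cenpe*, *Cenpf*, *Cenpp*, *Knl1*, *Bub1* and *Bub1b* belong to the kinetochore or its checkpoint. *Kif11*, *Kif15*, *Aspm*, *Tpx2*, *Hmmr* and *Prc1* build the spindle, and *Kif20b*, *Kif23*, *Anln*, *Ect2* and *Diaph3* act in cytokinesis or on actin. *Cdk1*, *Ccna2*, *Ccnb1* and *Ccnb2* are the mitotic kinase and its cyclins. Of the 38, 20 that act in or near mitosis are called core genes here, namely *Mki67*, *Top2a*, *Cenpe*, *Cenpf*, *Knl1*, *Bub1*, *Bub1b*, *Kif11*, *Kif15*, *Aspm*, *Tpx2*, *Hmmr*, *Prc1*, *Kif20b*, *Kif23*, *Ect2*, *Cdk1*, *Ccna2*, *Ccnb1* and *Ccnb2*.

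The study took nuclei from the brains of 12 mice. The 6 mutants were homozygous for the *Pdgfb* retention allele (*Pdgfb* ret/ret), and the 6 controls carried 1 copy of the same allele beside a wild-type copy (*Pdgfb* ret/wt), so that no mouse was free of it. All mutants and 5 controls were female, and control 6 was male. Numbers 1 to 3 were the older animals in both genotypes, at 5 months plus 0 to 18 days, and numbers 4 to 6 the younger, at 4 months plus 7 to 24 days. From every mouse came 1 library of the deep brain, where vessels calcify in mutants, and 1 of the cortex with hippocampus, where they do not.

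A gene of the cell cycle is in most cases silent in a resting cell and is transcribed in a fixed order once a cell enters division. The genes of replication come on at the boundary of G1 and S phase under E2F factors, and the genes of mitosis come on later, in G2 and M phase, under the MuvB complex with B-Myb and FoxM1. In the adult brain neurons do not divide. Oligodendrocyte precursor cells, which carry *Pdgfra* and *Cspg4*, are the main dividing cells of the parenchyma, microglia renew themselves at a low rate, and neuroblasts and their progenitors divide in the hippocampus and by the ventricles. Some of the 38 genes are also used outside division. *Anln*, an actin- and septin-binding protein of the cleavage furrow, is a part of myelin, and *Diaph3* is a formin that elongates actin filaments.

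Promoters of members that behaved in different ways in these nuclei are shown here, since members that share a timing in the cycle often share letters upstream of the start. *Mki67* and *Top2a* were found together in a small number of nuclei, *Diaph3* also in many nuclei without *Mki67*, and *Pola1* and *Rad51b* in many nuclei without a core gene. Each line gives the 250 bases before the start of the gene in RefSeq (GRCm38.p6), read in the direction of transcription, and for *Rad51b* the first of its 2 listed starts. Capitals mark 3 motifs, each searched on both strands, so that the reverse complement is marked too. The CCAAT box was searched by those letters, and the cell cycle homology region (CHR) as TTTGAA. An E2F site was searched in 4 forms, of which the first is TTCCCGC. The second form has the letters TTGGCGC and the third form has the letters TTGCCGC, while the last form of the site was TTCGCGC. The windows are chr7:135716380-135716629 on the minus strand (*Mki67*), chr11:99024190-99024439 on the minus strand (*Top2a*), chr14:87141225-87141474 on the minus strand (*Diaph3*), chrX:93632156-93632405 on the minus strand (*Pola1*) and chr12:79297032-79297281 on the plus strand (*Rad51b*).
Mki67: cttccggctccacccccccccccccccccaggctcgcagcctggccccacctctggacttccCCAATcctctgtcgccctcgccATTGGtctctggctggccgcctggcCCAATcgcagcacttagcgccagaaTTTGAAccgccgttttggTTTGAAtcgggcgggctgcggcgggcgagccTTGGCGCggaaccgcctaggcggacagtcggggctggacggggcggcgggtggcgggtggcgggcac
Top2a: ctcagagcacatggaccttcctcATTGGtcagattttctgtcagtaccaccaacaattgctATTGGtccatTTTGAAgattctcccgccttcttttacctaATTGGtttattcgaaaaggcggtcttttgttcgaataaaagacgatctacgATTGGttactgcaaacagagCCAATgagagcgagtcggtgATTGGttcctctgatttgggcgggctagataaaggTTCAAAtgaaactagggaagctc
Diaph3: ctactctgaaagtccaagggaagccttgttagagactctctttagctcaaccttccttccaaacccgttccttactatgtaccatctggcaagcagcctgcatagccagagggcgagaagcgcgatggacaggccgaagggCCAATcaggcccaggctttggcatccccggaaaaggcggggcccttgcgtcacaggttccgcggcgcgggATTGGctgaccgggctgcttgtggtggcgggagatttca
Pola1: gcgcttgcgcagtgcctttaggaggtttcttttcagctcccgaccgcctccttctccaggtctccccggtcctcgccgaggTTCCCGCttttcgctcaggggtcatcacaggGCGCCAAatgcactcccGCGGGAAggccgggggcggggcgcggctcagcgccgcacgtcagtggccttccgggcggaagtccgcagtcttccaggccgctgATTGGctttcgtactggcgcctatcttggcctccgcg
Rad51b: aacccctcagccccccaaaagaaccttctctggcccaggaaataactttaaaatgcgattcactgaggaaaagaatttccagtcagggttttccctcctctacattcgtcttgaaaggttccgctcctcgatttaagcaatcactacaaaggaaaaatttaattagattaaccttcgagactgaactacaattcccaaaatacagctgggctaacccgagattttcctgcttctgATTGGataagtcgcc

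The *Mki67* window held 3 CCAAT boxes, 2 CHR and 1 E2F site. The *Top2a* window held 6 CCAAT boxes and 2 CHR, with the nearest CHR 23 bases before the start. The *Diaph3* window held 2 CCAAT boxes and neither other motif. The *Pola1* window held 3 E2F sites and 1 CCAAT box, and the *Rad51b* window held 1 CCAAT box alone. Of the 38 members, 33 were matched in the table of promoters, with 36 windows (*Ccna2*, *Mcm4*, *Tpx2*, *Atad2* and *Smc4* were not). A CCAAT box stood in 30 of the 36 windows (83.3%), against 33.8% of all 32851 windows of the table. A CHR stood in 9 of 20 windows of core genes (45.0%), in 2 of 16 windows of the other members (12.5%) and in 16.0% of all windows. CHR and CCAAT box together stood in 8 of the 20 core windows (40.0%), against 5.55% of all windows. The 20 windows belong to 18 core genes, since *Ect2* and *Prc1* have 2 overlapping windows each. By gene, 8 of the 18 had a CHR and 7 had both motifs. An E2F site stood in 12 of the 36 windows (33.3%), against 7.89%, and on the reverse strand its second form can share letters with a CCAAT box. These are matches of letters, and factor binding was not measured in this study.

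Counts of unique molecular identifiers (UMIs) per gene and nucleus were used as deposited. Libraries held 64736053 to 96459036 UMIs in the deep brain and 23625232 to 95605387 in the cortex, and limits on genes and mitochondrial UMIs kept 124958 of 127519 and 79967 of 109705 barcodes. Any 2 libraries shared 8 to 220 barcodes, at most 1.99% of the smaller one. Classes were named from marker genes by new clustering, so they may differ from those of the study. The deep brain gave 3284 microglia, 3712 oligodendrocyte precursor cells (precursor cells below), 30242 oligodendrocytes, 11794 astrocytes and 68112 neurons, and the cortex gave 1446, 967, 6808, 1573 and 28205. In the cortex 38890 further nuclei with a median of 836 UMIs were left without a name, so its classes are the deeper part of those libraries. Microglia are counted after removal of nuclei with at least 2 UMIs of any 1 of *Mrc1*, *Mbp*, *Aqp4* and *Rbfox3*, which took 606 of 3890 in the deep brain. All 8 microglial markers, *P2ry12* and *Tmem119* among them, were detected in microglia, and their summed level was 10148 to 14747 CPM (a gene's UMIs scaled by all UMIs of the class in a library) in deep brain mutants and 11766 to 16673 in controls. Of 6 macrophage markers *Cd163*, *Lyve1* and *Pf4* had no UMI in the 3079 deep brain microglia without a core gene, while *Mrc1* had 34 UMIs there, *F13a1* 27 and *Ms4a7* 3. All 7 markers of precursor cells were detected in that class of control mice, at a summed 9775 to 11035 CPM in the deep brain.

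Precursor cells and microglia were the glia with most of the mitotic signal. *Mki67*, which coats mitotic chromosomes and marks dividing cells, had 13.2 ± 5.68 CPM in deep brain precursor cells and 10.5 ± 9.67 in microglia (SD, n = 12 libraries here and below). Its level was 0.691 CPM in astrocytes, 0.588 in neurons and 0.333 in oligodendrocytes. *Top2a*, the topoisomerase that untangles sister DNA, followed the same order with 15.2 CPM in precursor cells, 10.4 in microglia, 0.392 in astrocytes and 0.126 in oligodendrocytes. For both genes the SD between libraries was wider than the gap between precursor cells and microglia, and both classes stood far above the other classes named. In the cortex *Mki67* had 23.9 ± 29.8 CPM in precursor cells and 0.770 in microglia. *Aspm* and *Prc1*, both of the spindle, had no UMI in cortical microglia. Cortical neuroblasts had 257 CPM of *Mki67* and 233 of *Top2a* over all 145 nuclei. Libraries gave 1 to 40 of these nuclei, and the means over libraries were 162 ± 182 CPM of *Mki67* and 195 ± 267 of *Top2a*, so that the genes could not be put in order.

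Several members had a level in glia that carried almost no *Mki67*. *Anln* had 455 ± 84.2 CPM in deep brain oligodendrocytes and 428 ± 74.6 in cortical ones, where 53.8% and 52.3% of nuclei had a UMI, against 12.4 CPM in microglia, 10.1 in precursor cells and 8.81 in astrocytes of the deep brain. *Anln* thus had its highest level in mature oligodendrocytes, and 2.15% of its span overlaps another listed gene of the same strand. *Diaph3* had 99.6 ± 15.1 CPM in deep brain astrocytes, 97.8 ± 20.7 in precursor cells and 140 in committed precursors (nuclei with *Bmp4*, *Gpr17* and *Enpp6*), against 22.9 in microglia, 15.4 in oligodendrocytes and 8.80 in neurons. Astrocytes and precursor cells could not be put in order by *Diaph3*, since they differed by less than the SD. *Rad51b*, a protein of DNA repair by homologous recombination, had 121 ± 64.2 CPM in deep brain microglia and 164 ± 115 in cortical ones, as means over both genotypes, although mutant microglia had more of it than control microglia in the cortex. Deep brain oligodendrocytes had 54.4 CPM of it, precursor cells 33.7, astrocytes 9.28 and neurons 2.05, and in the cortex these classes had 42.4, 59.6, 6.26 and 1.65. In control mice alone the order was less clear. Deep brain microglia of controls had 75.2 ± 21.8 CPM and oligodendrocytes 51.2 ± 4.54, with overlapping ranges, and cortical microglia of controls had 65.4 ± 38.1 CPM and precursor cells 62.7 ± 44.8, less apart than the SD. Fibroblasts, with 949 nuclei, had 113 CPM in the deep brain, within the SD of microglia.

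*Pola1*, the catalytic subunit of DNA polymerase alpha, was found in every class and had 121 ± 17.3 CPM in deep brain precursor cells. *Ezh2*, the histone methyltransferase of Polycomb repressive complex, had 75.5 CPM in deep brain precursor cells and 392 ± 186 in cortical neuroblasts. *Mcm3*, a subunit of the replicative helicase, had 15.0 ± 4.90 CPM in deep brain microglia, 3.65 in precursor cells and 0.172 in neurons. Across 6 classes chosen for this ranking (microglia, precursor cells, oligodendrocytes, astrocytes, neurons and endothelial cells, fibroblasts and others left out), with the UMIs of all libraries pooled, precursor cells had the highest level of 22 of the 38 members in the deep brain, microglia of 8, endothelial cells of 7 and oligodendrocytes of 1. In the cortex precursor cells had the highest level of 34, and microglia (*Mcm3* and *Rad51b*), oligodendrocytes (*Anln*) and astrocytes (*Diaph3*) had the other 4. The first place of cortical microglia in *Rad51b* rests on the mutants, since in controls microglia and precursor cells differed by less than the SD. In the deep brain the first places of precursor cells in *Mki67*, *Top2a* and *Diaph3* rest on gaps smaller than the SD between libraries. Not every first place was set against the SD, and some were close and rest on few UMIs. *Prc1*, placed highest in microglia, had 63 of their 8174790 UMIs and 160 of 21101193 in precursor cells. By the mean over libraries, astrocytes had slightly more *Diaph3* than precursor cells. Levels are compared here within a gene and between classes, since the members span 5.91 to 517 kb and intronic reads were counted.

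**Figure D1:**
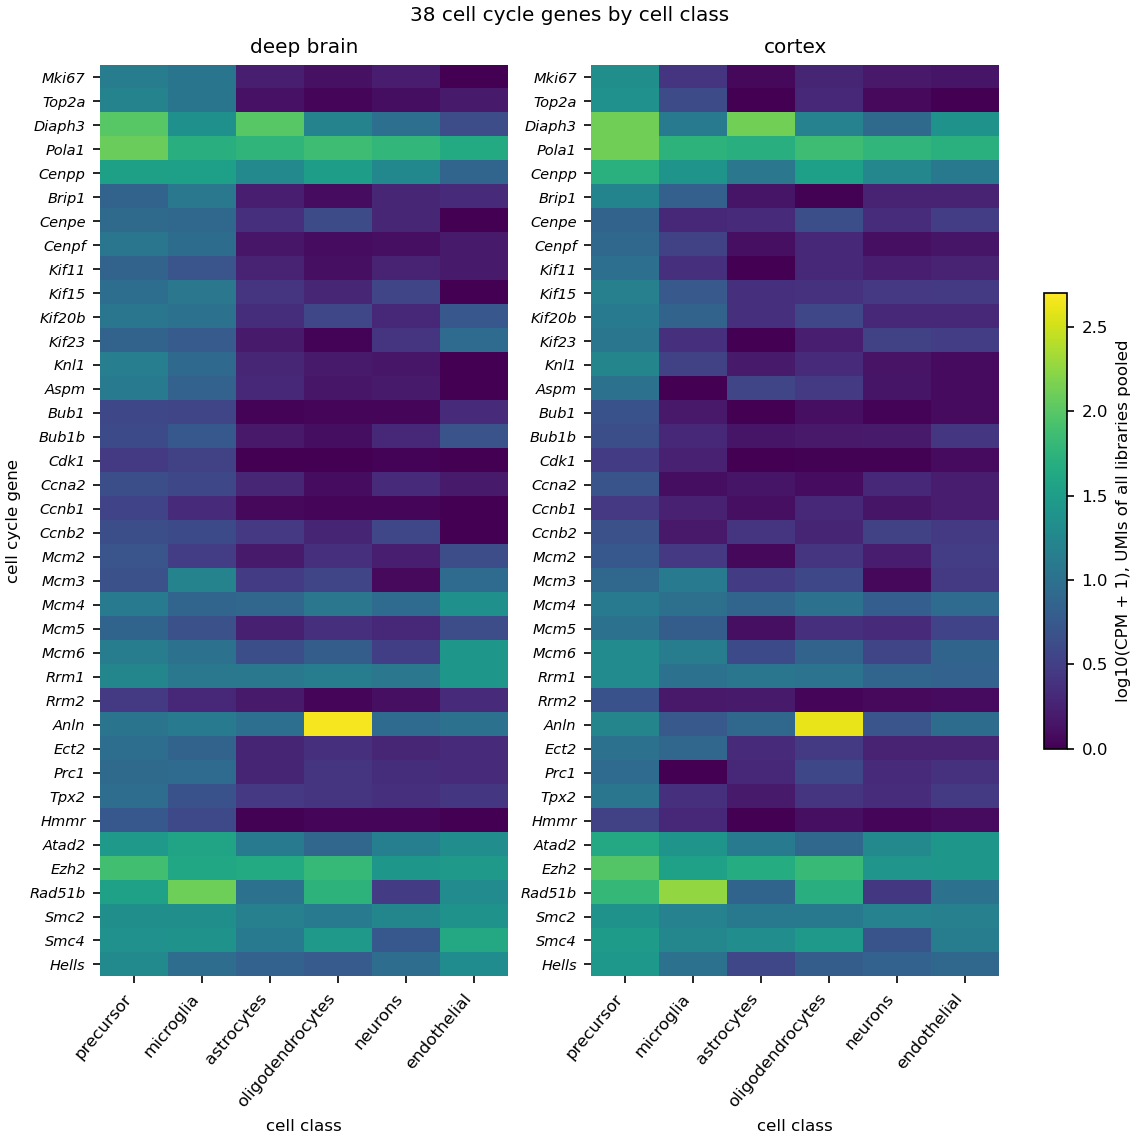
Level of each of the 38 members by cell class in the deep brain and the cortex. Values are CPM from the pooled UMIs of 12 libraries (color, log scale), with members in the order they were listed. *Mki67* and *Top2a* were near 0 in oligodendrocytes, astrocytes and neurons, while *Anln* reached a pooled 456 CPM in oligodendrocytes and *Rad51b* 125 CPM in microglia of the deep brain.

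Single UMIs of a cycle gene can come from free RNA in a droplet, so nuclei were counted that had at least 1 UMI of at least 3 different core genes. In deep brain microglia 24 of 3284 nuclei met this (0.731%, exact 95% interval 0.469 to 1.09, counting error only), from 10 of 12 libraries. A further 172 nuclei had a single core gene and 9 had 2, whereas 21 of the 24 had 4 or more, up to 19. The 24 had a median of 3457 UMIs, and all microglia had 2274.5. In deep brain precursor cells 87 of 3712 nuclei met the criterion (2.34%, interval 1.88 to 2.88), from all 12 libraries, and 74 of them had 4 or more core genes. Cortical precursor cells had 29 of 967 (3.00%, interval 2.02 to 4.28), and cortical microglia had 4 of 1446 (0.277%, interval 0.0754 to 0.707). The microglial counts were thus small in both regions.

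Other classes gave the background of the same count, first in the deep brain. None of 30242 deep brain oligodendrocytes met the criterion, which allows a share of up to 0.00992%, although their median depth of 2671 UMIs was above that of microglia. None of 319 committed precursors did, which allows up to 0.940%, and 10 of 11794 astrocytes did (0.0848%). Neurons, with a median of 9630 UMIs, had 100 of 68112 (0.147%), and in these 100 the markers of neuroblasts summed to 433 against 128 CPM in neurons without a core gene, those of precursor cells to 1159 against 745 and those of astrocytes to 411 against 277. Cortical neuroblasts had 31 of 145 (21.4%, interval 15.0 to 29.0). When every nucleus was thinned to 1000 UMIs, 19 of 3235 deep brain microglia (0.587%) and 46 of 3701 precursor cells (1.24%) still met it, against 2 of 11662 astrocytes (0.0171%) and 24 of 66847 neurons (0.0359%). In the cortex the background was 59 of 28205 neurons (0.209%, at a median of 12210 UMIs), 3 of 6808 oligodendrocytes (0.0441%) and 0 of 1573 astrocytes, which allows up to 0.191%. The share of neurons lay inside the interval of cortical microglia, so the 4 cortical microglial nuclei were not shown to exceed it. Cortical microglia had a lower median of 2223 UMIs. Oligodendrocytes were nearer in depth, at a median of 2640, and their interval of 0.00909 to 0.129 overlapped that of microglia. After thinning 2 of 1428 cortical microglia (0.140%), 2 of 28105 neurons (0.00712%) and 3 of 6748 oligodendrocytes (0.0445%) remained.

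The other 18 members, which were not counted in choosing these nuclei, were at a far higher summed level in them. They were listed with earlier results of these data known. The study had reported *Pola1* and *Cenpp* as up-regulated in its proliferating microglia, so their rise here was not independent of the choice of members. In the 24 microglial nuclei all 18 were higher than in the 3079 microglia without a core gene, and their summed level was 6620 against 337 CPM. *Diaph3* had 988 against 9.14 CPM. *Cenpp*, a protein of the inner kinetochore, had 852 against 22.5 CPM, and *Smc4* of the condensin ring had 670 against 16.0. *Brip1*, a helicase that acts in repair of crosslinked DNA, had 420 against 4.24 CPM. *Pola1* had 352 against 39.9 CPM and *Rad51b* 693 against 112, so both also had UMIs in microglia without a core gene. The part of free RNA in these levels was not tested. At the low end *Mcm3* had 45.4 against 14.6 CPM, and *Mcm4* had 11.4 against 6.36, which rests on 1 UMI. In precursor cells of the deep brain all 18 were higher too, with a sum of 4204 against 395 CPM, and the cortex gave 5293 against 426. In the 4 cortical microglial nuclei the sum was 5985 against 385 CPM in the 1352 without a core gene, with 14 of the 18 higher and 4 without a UMI. *Diaph3* stood at 81.7 CPM and *Pola1* at 105 CPM in the 3223 deep brain precursor cells with no core gene. These are descriptions of nuclei chosen by other genes of the same cycle, with no test.

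A second list of 81 cycle genes outside the 38 was read in the same nuclei. In the 24 microglial nuclei 79 of 81 were higher than in those without a core gene, with a sum of 11622 against 658 CPM. Among them *Neil3*, a DNA glycosylase of replicating cells, had 511 against 0.132 CPM. The 2 exceptions were *Cdca7*, with 1 UMI, and *Fen1*, with 0 UMIs. In deep brain precursor cells 81 of 81 were higher, with 7705 against 621 CPM, and in the 4 cortical microglial nuclei the sum was 6400 against 628 CPM, with 45 of 81 higher and 32 lower, each of the 32 without a UMI. Of 37 regulators of the cycle 30 were higher in the microglial nuclei, such as *Foxm1*, the factor that drives mitotic genes, with 125 against 0.662 CPM, and the kinase inhibitor *Cdkn2c* with 159 against 1.32. *Ccnd3*, a D-type cyclin, went the other way with 79.5 against 490 CPM, that is 7 UMIs in the 24 nuclei.

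The nuclei carried the markers of their class, at a lower sum than the rest of the class. The 8 microglial markers summed to 9757 CPM in the 24 nuclei and to 13231 in microglia without a core gene, with 7 of the 8 lower, and 23 of the 24 had at least 3 UMIs of these markers. Macrophage markers had no UMI in the 24 nuclei. One nucleus carried all 20 UMIs of T-cell markers that the 24 nuclei held. Astrocyte markers summed to 602 against 456 CPM, with 27 of their 53 UMIs in 1 nucleus, and precursor markers to 295 against 171 CPM, with 12 of 26 UMIs in 1 nucleus. Markers of neurons summed to 500 against 964 CPM and those of oligodendrocytes to 625 against 884. In the 4 cortical microglial nuclei precursor markers summed to 413 against 59.0 CPM, all 6 UMIs in 1 nucleus, and neuroblast markers to 552 against 25.3. The 8 markers of calcification-associated microglia (CAM), *Spp1*, *Lpl*, *Axl*, *Ank*, *Apoe*, *Cd74*, *Flt1* and *Csf1*, summed to 352 against 497 CPM in the deep brain and to 344 against 386 in the cortex. In the clustering 20 of the 24 formed a group of their own, 12 from mutants and 8 from controls, with no UMI of *Lpl*, *Axl* or *Spp1* and with 1201 CPM of *P2ry12*. A separate group of 53 microglia with 809 CPM of *Lpl*, 51 of them from mutants, held none of the 24. Each nucleus was placed in 1 group only, so those 20 could not be counted in this one. Against the 0.731% of all deep brain microglia, 53 nuclei are too few to show a lower share. Whether nuclei of this group divide was not tested. The paper reports CAM positive for a proliferation marker around calcifications of mutants treated with an activating or a control antibody. All 87 precursor nuclei had at least 3 UMIs of precursor markers, which summed to 8546 against 10968 CPM with 6 of the 7 lower. In the 87, oligodendrocyte markers summed to 836 against 616 CPM, with 145 of 479 UMIs in 1 nucleus, and markers of neurons to 1065 against 1318, with 146 of 610 UMIs in 1 nucleus. The part of these markers in the counts was not tested. Scrublet called 1 of the 24 and 11 of the 87 doublets. The limit on *Mrc1*, *Mbp*, *Aqp4* and *Rbfox3* had taken out 12 of 36 microglial nuclei with 3 or more core genes, and 34.6% of the microglia in the highest of 3 equal bins of UMIs.

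Members therefore differed in how far they were tied to these few nuclei. The 24 held 1.08% of the UMIs of deep brain microglia. They held 96.4% of the *Mki67* UMIs (80 of 83), 91.7% of those of *Top2a* (77 of 84) and all 49 of *Aspm*. They held 48.6% of *Diaph3*, 23.3% of *Ezh2*, 7.85% of *Pola1* (31 of 395), 5.96% of *Rad51b* (61 of 1023) and 1.85% of *Mcm4*. In precursor cells the 87 nuclei held 2.71% of all UMIs, 90.9% of *Mki67*, 93.7% of *Top2a*, 42.0% of *Cenpp*, 28.2% of *Rad51b*, 19.7% of *Diaph3* and 11.6% of *Pola1*. In cortical precursor cells the 29 nuclei held 4.27% of all UMIs, 97.4% of *Mki67*, 34.2% of *Rad51b*, 23.2% of *Pola1* and 22.7% of *Mcm4*. A UMI of *Mki67* thus came mostly with other mitotic genes in these classes, while one of *Pola1*, *Rad51b* or *Mcm4* more often lay in a nucleus below the criterion. Of the 25 deep brain microglia with a UMI of *Mki67*, *Top2a* was in 22 (88.0%, against 0.153% of microglia without it), the kinetochore scaffold *Knl1* in 19 (76.0% against 0.123%), *Cenpp* in 20 (80.0% against 3.68%) and *Pola1* in 14 (56.0% against 7.76%). None of the 25 had a UMI of *Mcm4*. Core genes took part in choosing the nuclei, so their shares describe the choice.

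**Figure D2:**
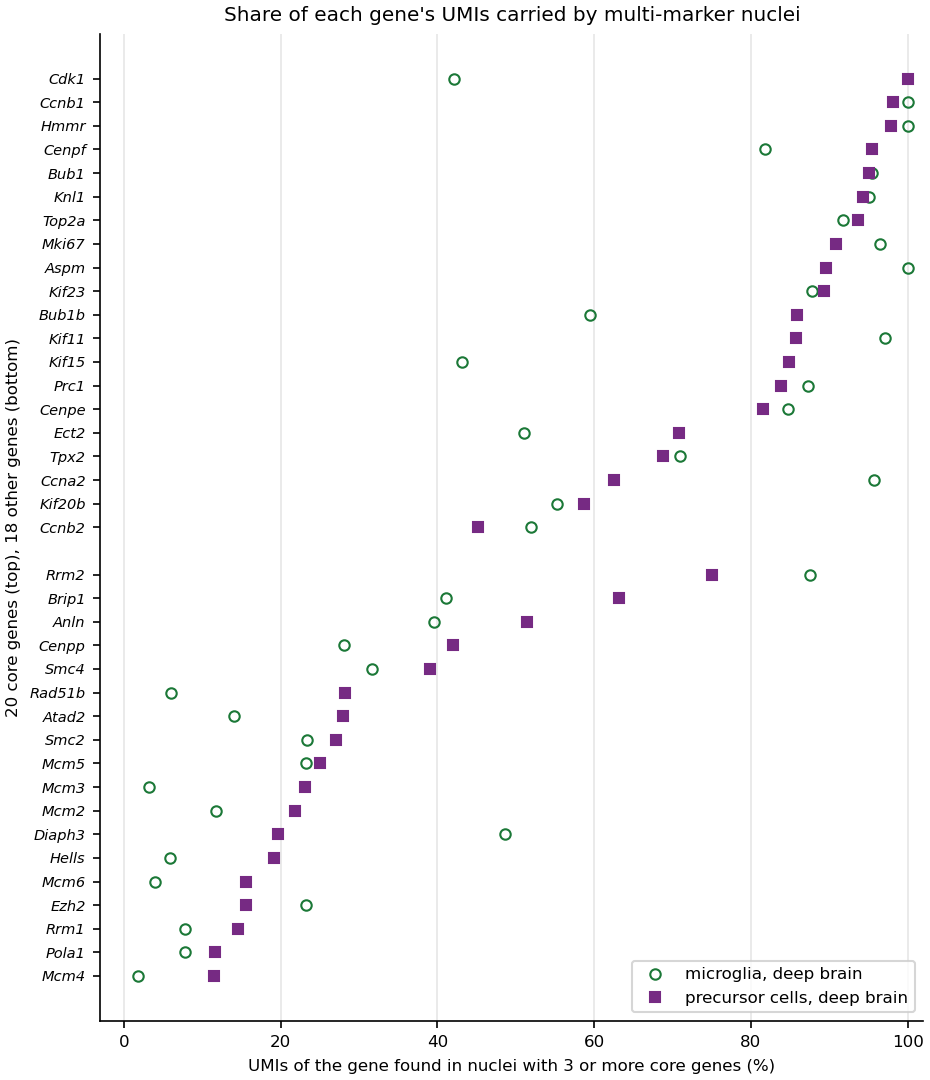
Share of each member's UMIs that lay in nuclei with 3 or more core genes, in deep brain microglia and precursor cells, in percent, with a symbol for each class. In microglia *Mki67* stood at 96.4% and *Rad51b* at 5.96%, where the nuclei held 1.08% of all UMIs.

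The shares of such nuclei overlapped between genotypes in both classes and both regions. In deep brain microglia 16 of 1881 mutant nuclei and 8 of 1403 control nuclei met the criterion, or 0.882% ± 0.748 and 0.576% ± 0.541 as means over 6 mice (SD). Mutants ranged from 0.303% to 2.13% and controls from 0% to 1.31%. Mutant 2 gave 6 of the 16, and without it the difference of the means came down from 0.307 to 0.0578 percentage points. Controls 4 and 6 gave none, although with no removal of contaminants they gave 2 of 215 and 1 of 299. In cortical microglia 3 of 925 mutant and 1 of 521 control nuclei met it. In deep brain precursor cells the counts were 50 of 1876 and 37 of 1836, with 2.66% ± 0.483 in mutants (1.97% to 3.38%) and 2.03% ± 0.469 in controls (1.26% to 2.66%). In cortical precursor cells 18 of 517 and 11 of 450 met it, a mean of 4.46% ± 3.62 and 3.39% ± 3.05. This difference of 1.07 percentage points turned to -0.931 at 4 or more core genes, to -0.624 after thinning to 1000 UMIs and to -0.140 without mutant 2. In deep brain microglia the difference was 0.760 when 1 UMI of a contaminant gene was enough to remove a nucleus, with 14 of 1315 mutant and 3 of 1004 control nuclei (1.08% ± 0.963 and 0.316% ± 0.350). With no removal of contaminants 23 of 2251 mutant and 13 of 1639 control microglia met the criterion (1.06% ± 0.871 and 0.807% ± 0.360). The difference was then 0.258 percentage points. With nuclei thinned to 1000 UMIs the difference in the deep brain was 0.0185 percentage points in microglia and came down from 0.635 to 0.0484 in precursor cells. At these counts no difference between genotypes was established in microglia, since the shares were not tested. No p-value was computed for a share over the members.

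**Figure D3:**
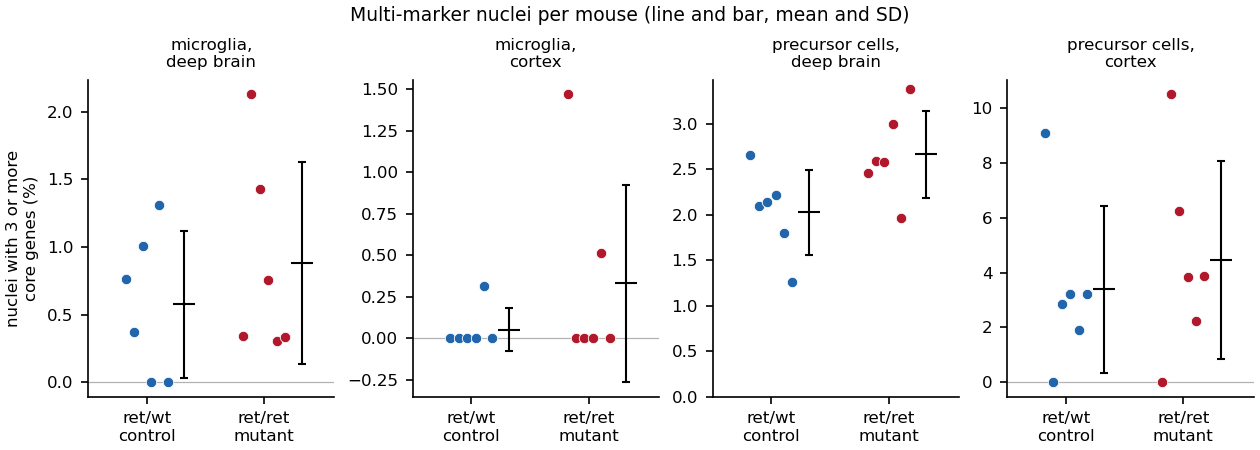
Share of nuclei with 3 or more core genes in each mouse, in percent, by class, region and genotype, with a point for each of the 6 mice of a group and a line and bar for the mean and SD. Deep brain precursor cells ranged from 1.97% to 3.38% in mutants and from 1.26% to 2.66% in controls, and the genotypes overlapped in each panel.

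To compare genotypes gene by gene, UMIs were summed over a class in every library and fitted with the quasi-likelihood test of edgeR over all genes that passed its filter on low counts, with Benjamini-Hochberg adjustment and a threshold of 0.05. In deep brain microglia 8 of the 38 members passed the filter and none was called, where 0.0747% of all 9370 genes tested were called. At an unadjusted p under 0.05 there was 1 member, *Rad51b*, which DESeq2 called. None of the core genes was among the 8. *Mki67* had 1.19, 10.9 and 20.2 CPM as lowest, median and highest of the mutants and 0, 5.23 and 29.0 of the controls. *Top2a* had 4.62, 10.7 and 23.3 CPM in mutants and 0, 8.19 and 18.6 in controls. Both genes thus varied more among the mice of a genotype than between genotypes. *Diaph3* had 6.93, 17.0 and 62.1 CPM in mutants and 6.33, 20.9 and 39.4 in controls (log2 fold change 0.04, SE 0.49). *Pola1* had 43.9, 53.0 and 62.5 CPM against 26.9, 35.2 and 72.6 (log2 fold change 0.26, SE 0.21, edgeR adjusted p = 0.866). The control range enclosed that of the mutants. *Cenpp* had 19.9, 28.4 and 49.6 CPM against 26.0, 37.0 and 48.5 (log2 fold change -0.29, SE 0.23), and *Ezh2* had 27.0, 36.9 and 47.4 against 21.1, 44.5 and 60.7 (log2 fold change -0.24, SE 0.22).

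*Rad51b* was the 1 member called between genotypes, in cortical microglia. There, mutant microglia had 179, 257 and 378 CPM (lowest, median and highest, mean 263 ± 66.0) and control microglia 21.1, 67.6 and 115 (mean 65.4 ± 38.1, SD, n = 6 mice). The genotypes did not overlap, and every mutant was above every control. Several of these values rest on few nuclei. Controls 1 to 6 gave 41, 42, 43, 47, 316 and 32 cortical microglia. Mutants 1 to 6 gave 68, 34, 48, 94, 388 and 293. The log2 fold change was 1.86 with an SE of 0.26, or 3.64-fold, at an edgeR adjusted p of 2.6e-04. *Rad51b* was the 1 member called of the 2 that passed the filter in cortical microglia, where 0.345% of the 4342 genes tested were called as higher and 0.368% in either direction, and it was called in all 21 alternatives run. *Pola1*, the other member tested there, had 38.6, 61.2 and 115 CPM in mutants and 0, 35.4 and 81.0 in controls (log2 fold change 0.56, SE 0.35, edgeR adjusted p = 0.793).

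In the deep brain *Rad51b* had 78.6, 167 and 261 CPM in mutant microglia (mean 167 ± 59.7) and 54.9, 69.1 and 108 in controls (mean 75.2 ± 21.8). Here 1 mutant, number 5 with 78.6 CPM, lay within the range of the controls, and the other 5 lay above it. The log2 fold change was 1.13 with an SE of 0.23, or 2.19-fold, with an unadjusted p of 8.1e-05 and an edgeR adjusted p of 0.0761, which missed the threshold. Over 23 alternatives the edgeR or DESeq2 adjusted p ran from 1.1e-05 to 0.155, and 6 of them called the gene. Without mutant 5 the log2 fold change was 1.28 at an edgeR adjusted p of 0.00473. A test of region by genotype gave a log2 difference of -0.93 (SE 0.25, edgeR adjusted p = 0.601), so the smaller value in the deep brain was not shown to differ from that in the cortex.

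Without the nuclei with 3 or more core genes the log2 fold change of *Rad51b* in the deep brain was 1.17 (edgeR adjusted p = 0.0441), so the difference was as large without them. In the main microglial group of the deep brain 19.6% of 1726 mutant nuclei and 11.9% of 1349 control nuclei had a UMI of *Rad51b*, with 170 and 77.8 CPM over the group. The 51 mutant nuclei of the Lpl-high group had 345 CPM, in 37.3% of nuclei, and without that group the deep brain log2 fold change was 1.08 (edgeR adjusted p = 0.0880). In the cortex 29.2% of 925 mutant and 11.7% of 521 control microglia had a UMI. The higher level thus went with more nuclei with a UMI. Of deep brain neurons, at a median of 9630 UMIs, 1.45% had a UMI of *Rad51b*, and of astrocytes, at 3446 UMIs, 2.81%. In other classes *Rad51b* had a log2 fold change of 0.14 in deep brain precursor cells (SE 0.21), 0.21 in deep brain oligodendrocytes (SE 0.13), -0.07 in cortical oligodendrocytes (SE 0.27) and 0.04 in deep brain astrocytes (SE 0.18), with no call by edgeR. In cortical astrocytes it was too low to pass the filter, with 6.86 to 15.5 CPM in mutants and 0 to 6.64 in controls.

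Marker lists of other cells and states were summed in the same microglia. CAM markers summed to 352 to 681 CPM in mutants and 272 to 483 in controls in the cortex, where the groups overlapped, and to 426 to 958 and 286 to 384 CPM in the deep brain, where they did not. Macrophage markers summed to 0 to 29.6 and 0 to 24.1 CPM and T-cell markers to 0 to 12.9 and 0 to 10.5 CPM in the cortex. In the deep brain these were 3.58 to 33.7 and 1.53 to 12.9 CPM for macrophages and 0 to 31.0 and 1.48 to 4.22 CPM for T cells. Their part in the *Rad51b* difference was not tested. The sum of all 38 members in cortical microglia was 468, 541 and 776 CPM in mutants and 182, 307 and 385 in controls, and *Rad51b* alone held 686 of its 1784 UMIs. *Mki67* had 0 to 6.67 CPM in these mutants and 0 in every control. The sum of the 20 core genes overlapped, with 23.8, 43.2 and 61.3 CPM in mutants and 11.8, 28.4 and 43.9 in controls.

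In deep brain precursor cells no member was called, of 27 that passed the filter, where 0.0257% of 11681 genes were called. Of the 27, 24 had a log2 fold change above 0 and 3 below, with a median of 0.13 against 0.00 over all genes, and 2 had an unadjusted p under 0.05. DESeq2 called none. *Mki67* had 4.43, 13.4 and 24.5 CPM in mutants and 8.63, 11.5 and 19.3 in controls (log2 fold change 0.10, SE 0.30). *Top2a* had 6.89, 15.7 and 25.1 CPM against 9.21, 15.2 and 23.8 (log2 fold change 0.05, SE 0.28). For both genes the mutants reached beyond the controls on either side. *Pola1* had 107, 129 and 154 CPM against 97.3, 108 and 133 (log2 fold change 0.22, SE 0.10, unadjusted p = 0.0438, edgeR adjusted p = 0.950). *Diaph3* had 66.4, 101 and 113 CPM against 63.9, 99.2 and 134 (log2 fold change -0.07, SE 0.16), and *Cenpp* had 23.1, 34.1 and 51.8 against 23.1, 30.6 and 45.6 (log2 fold change 0.15, SE 0.19). *Smc4* had a log2 fold change of 0.37 (SE 0.17, edgeR adjusted p = 0.950). In cortical precursor cells 6 members were tested and none was called by edgeR or DESeq2, nor had any an unadjusted p under 0.05, where 0% of 5461 genes were called. *Mki67* had 0, 6.87 and 33.9 CPM in cortical mutants and 0, 23.7 and 96.3 in controls, and *Pola1* had 72.1, 142 and 186 against 84.6, 110 and 125 (log2 fold change 0.33, SE 0.18).

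Among the regulators of the cycle 1 gene was called in precursor cells. *Cdk6*, a kinase that with D-type cyclins carries cells out of G1, fell in mutant precursor cells of the deep brain, with 6.43, 7.67 and 9.26 CPM in mutants and 12.7, 21.1 and 27.7 in controls. The ranges did not overlap, and the log2 fold change of -1.40 (SE 0.20, edgeR adjusted p = 0.00381) was called in all 20 alternatives. It was 1 of 26 regulators tested in that class and 1 of 3 genes called among all. In cortical precursor cells, where it did not pass the filter, *Cdk6* had 0, 7.54 and 12.7 CPM in mutants and 11.0, 32.1 and 37.9 in controls. With no filter its log2 fold change there was -1.54 (edgeR adjusted p = 0.0276). These rest on 308 UMIs in the deep brain and 99 in the cortex. In microglia its log2 fold change was 0.13 in the deep brain (SE 0.14) and -0.16 in the cortex (SE 0.20), neither called. Markers of the class overlapped between genotypes, with precursor markers at 9290 to 11866 CPM in deep brain mutants and 9775 to 11035 in controls, and committed precursor markers at 1083 to 1226 and 1101 to 1239.

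**Figure D4:**
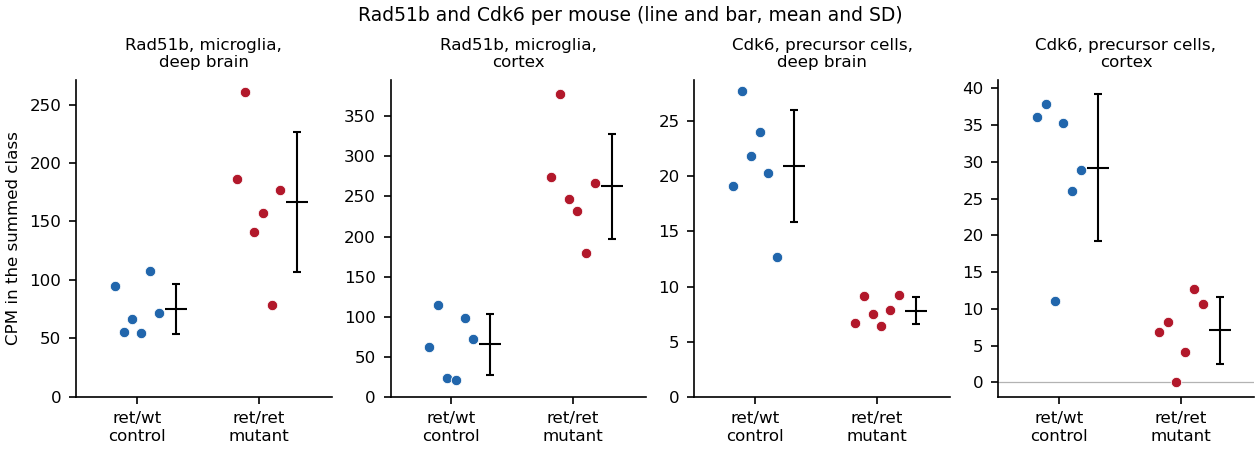
Level of *Rad51b* in microglia and of *Cdk6* in precursor cells for each mouse, in CPM, by region and genotype, with a line and bar for the mean and SD of 6 mice. Cortical microglia had 179 to 378 CPM of *Rad51b* in mutants and 21.1 to 115 in controls, and deep brain precursor cells had 6.43 to 9.26 CPM of *Cdk6* in mutants and 12.7 to 27.7 in controls.

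Oligodendrocytes and astrocytes had no member called between genotypes. Of 21 members tested in deep brain oligodendrocytes none was called, with 1 at an unadjusted p under 0.05 and none by DESeq2, where 1.64% of genes were called. In cortical oligodendrocytes 10 members were tested and none called, with none at an unadjusted p under 0.05 and none by DESeq2, where 1.11% of genes were called. *Anln* had a log2 fold change of -0.22 in deep brain oligodendrocytes (SE 0.13, edgeR adjusted p = 0.457), and *Cenpp* 0.32 (SE 0.11, edgeR adjusted p = 0.152). In deep brain astrocytes 13 members were tested with 3.02% of genes called, and in cortical astrocytes 3 with 2.04% called. None of these members was called by edgeR or DESeq2, and 1 in the deep brain and 0 in the cortex had an unadjusted p under 0.05. *Diaph3* had a log2 fold change of -0.18 in the deep brain (SE 0.12, edgeR adjusted p = 0.519).

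*Ccnd3* fell in mutant oligodendrocytes. In the deep brain it had 14.8, 18.4 and 29.3 CPM in mutants and 32.4, 37.6 and 50.7 in controls, without overlap (log2 fold change -0.88, SE 0.17, edgeR adjusted p = 0.0187). In the cortex it had 15.1, 17.8 and 25.4 CPM in mutants and 23.2, 36.9 and 46.3 in controls (log2 fold change -0.78, SE 0.18, edgeR adjusted p = 0.0442), and 1 control lay within the range of the mutants. Leaving out mutant 3 or control 2 ended the deep brain call (edgeR adjusted p = 0.0559 and 0.0524), and leaving out any of 9 mice ended the cortical one, with an edgeR adjusted p of at most 0.126. In microglia *Ccnd3* had a log2 fold change of -0.01 in the deep brain (SE 0.33). Of the list of 81 other cycle genes none was called between genotypes in microglia, precursor cells, oligodendrocytes or astrocytes of either region, by edgeR or DESeq2. Between 3 and 38 of the 81 passed the filter there, with at most 5 at an unadjusted p under 0.05. Of the 37 regulators between 8 and 28 passed, and the calls of *Cdk6* and *Ccnd3* were the only 3 made by edgeR in these 8 comparisons.

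Control mice also gave a comparison of regions within the mouse. In precursor cells 8 of the 27 members tested were lower in the deep brain than in the cortex and none was higher, where 4.82% of the 10956 genes tested were called as lower and 10.0% in either direction. The 8 were *Mki67*, *Diaph3*, *Cenpp*, *Brip1*, *Knl1*, *Anln*, *Rad51b* and *Smc4*, or 29.6% of the members tested. Of the 27, 25 had a log2 difference below 0, with a median of -0.54 against 0.00 over all genes. Mice 1 to 6 had 96.3, 0, 18.4, 66.7, 13.0 and 28.9 CPM of *Mki67* in the cortex and 10.3, 12.7, 19.3, 9.28, 16.1 and 8.63 in the deep brain (log2 difference -1.22, SE 0.36, edgeR adjusted p = 0.0200). The 2 highest cortical values were those of controls 1 and 4, and in controls 2, 3 and 5 the deep brain was the higher.

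*Cenpp* fell in the deep brain of 5 of the 6 controls, from 72.2, 72.4, 44.1, 98.0, 43.6 and 57.9 CPM in the cortex to 27.3, 23.1, 45.6, 33.8, 38.3 and 25.3 (log2 difference -0.93, SE 0.20, edgeR adjusted p = 6.1e-04). *Rad51b* was lower in all 6, with 144, 20.7, 25.7, 51.0, 70.5 and 64.0 CPM in the cortex and 34.5, 16.7, 23.1, 42.0, 53.1 and 21.9 in the deep brain (log2 difference -0.88, SE 0.20, edgeR adjusted p = 0.00198). Both genes were also called in each fit that left out 1 mouse. *Smc4* was lower in all 6 as well, from 23.2 to 54.9 CPM in the cortex and from 13.8 to 27.0 in the deep brain (log2 difference -0.81, SE 0.24, edgeR adjusted p = 0.0196). *Diaph3* had 96.5 to 224 CPM in the cortex and 63.9 to 134 in the deep brain (log2 difference -0.44, SE 0.13, edgeR adjusted p = 0.0196). *Brip1*, *Knl1* and *Anln* had log2 differences of -1.79, -1.24 and -1.59 (SE 0.40, 0.39 and 0.39, edgeR adjusted p = 0.00147, 0.0308 and 0.00416), and each was at 0 CPM in 1 cortical library. *Pola1* had a log2 difference of -0.05 and *Ezh2* one of -0.26, neither called, and *Top2a* had one of -0.82 (SE 0.37, edgeR adjusted p = 0.182).

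**Figure D5:**
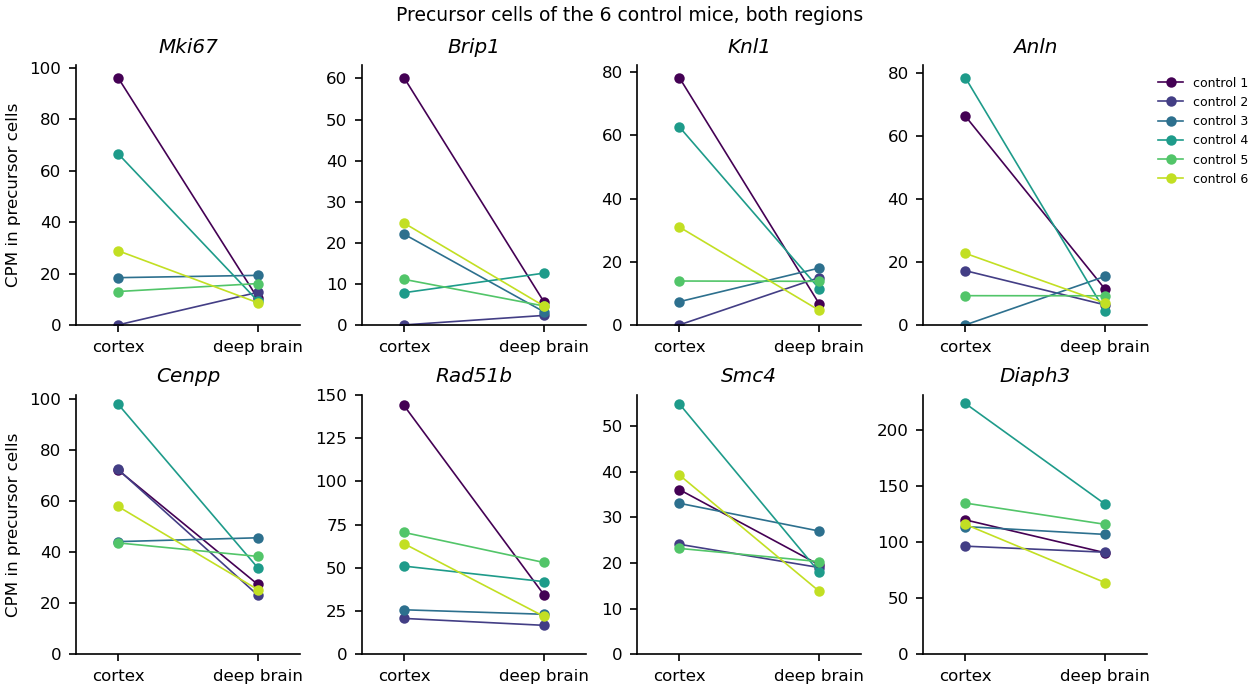
Level of the 8 called members in precursor cells of each control mouse in the cortex and the deep brain, in CPM, with a line joining the 2 regions of a mouse. *Mki67* ranged from 0 to 96.3 CPM in the cortex and from 8.63 to 19.3 in the deep brain, and *Rad51b* was lower in the deep brain in all 6 mice.

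The cortical side of this comparison rests on few nuclei. Controls 1 to 6 gave 22, 39, 35, 31, 261 and 62 cortical precursor nuclei. These nuclei had medians of 7592, 7115, 7800, 8328, 4008 and 7935.5 UMIs. In the deep brain the medians were 5642, 4394, 4833, 5914, 5340 and 4398. Cortical nuclei were thus the deeper ones in every control but number 5, and the part of depth in the result was not tested. In control 4 a single nucleus held 126 of the 139 UMIs of core genes, and in control 1 a pair of nuclei held 106 of 107. Without control 4 the calls came down from 8 to 2 (*Cenpp* and *Rad51b*), without control 6 to 5, and without controls 2 or 3 they were 9. Without the nuclei with 3 or more core genes 13 members were tested and 2 were called, *Anln* and *Rad51b*. DESeq2 called 3 (*Brip1*, *Cenpp* and *Rad51b*), and edgeR without the block for the mouse called 3 (*Brip1*, *Cenpp* and *Smc4*). Neuroblast markers in the class were at 103 to 175 CPM in the cortex and 112 to 135 in the deep brain, and precursor markers at 11196 to 13835 and 9775 to 11035 CPM. Of the deep brain precursor nuclei of both genotypes, 388 formed a group with a median of 13338 UMIs. That group had 400 CPM of *Pdgfra*, 140 of *Cspg4* and 42.2 of *Diaph3*. The main group of 3187 nuclei had 1400, 499 and 92.1 CPM, and the 1 cortical group had 1560, 532 and 129. *Cenpp* went the other way, with 22.3 CPM in the 388 and 16.7 in the main group. The part of these in the result was not tested. Of the other cycle genes 0 of 30 tested were called by edgeR in the same comparison with 3 at an unadjusted p under 0.05, and of the regulators 0 of 24 with 2.

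In control microglia 5 members were tested between regions and none was called by edgeR or DESeq2, where 1.38% of 8061 genes were called. None had an unadjusted p under 0.05. With no filter on low counts edgeR called 3, *Diaph3*, *Mki67* and *Prc1*. *Cenpp* had a log2 difference of 0.77 (SE 0.38, edgeR adjusted p = 0.454). *Cit*, the citron kinase of cytokinesis and 1 of the 10 other cycle genes tested, was higher in the deep brain, with 21.1, 38.3 and 49.7 CPM against 0, 6.32 and 16.9 in the cortex (log2 difference 1.91, SE 0.43, edgeR adjusted p = 0.0226). The regions did not overlap in these mice, and leaving out controls 1, 2, 3 or 6 raised the edgeR adjusted p to between 0.0545 and 0.112, while DESeq2 gave it no adjusted p. Region by genotype gave no called member among 10 tested in microglia and 28 in precursor cells, by edgeR or DESeq2, with 2 at an unadjusted p under 0.05 in each, where 0% of 9889 and 0% of 11619 genes were called.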

How the data were processed

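Nuclear RNA of 24 libraries (12 mice, 2 regions) was measured by droplet sequencing of 5′ ends (10x Genomics). The authors aligned reads to the mouse genome mm10 with Cell Ranger 5.0.1, introns included, after bcl2fastq 2.20.0.422, and deposited raw counts of UMIs per gene and nucleus without normalization. Groups came from the sample labels.

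Nuclei passed with 500 to 7000 genes (both limits exclusive) and mitochondrial UMIs below 20%. They were clustered per region with scanpy 1.11.5 and Seurat 5.3.0 and named from marker lists. Doublets stayed in, and those called by Scrublet were left out in an alternative. UMIs were summed per library and class, genes were filtered with filterByExpr, scaled by TMM and tested with edgeR 4.0.16 in R 4.3.3 (quasi-likelihood test, Benjamini-Hochberg over all genes tested). The region comparison was blocked by mouse, since per the labels both libraries of a number and genotype came from 1 animal. DESeq2 1.42.0 was an alternative. Between genotypes the p-values measure the spread between mice. The tests between regions and of region by genotype were blocked by mouse, and their p-values measure how the regional difference varies among mice. CPM use all UMIs of the class. Intervals are exact (Clopper-Pearson) at 95%, the limit for a share of 0 is 3 counts, and both cover counting error only. Depth was 23625232 to 96459036 UMIs per library, and each core gene had under 100 UMIs in the microglia of either region. On simulated counts for deep brain microglia (9370 genes) the test found 97.0% of 200 genes changed by 1.5 on the log2 scale. The simulation drew only genes that passed the filter, at the dispersion of the trend. It therefore does not cover the core genes in microglia or genes more variable than the trend.

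The members, lists and tests were chosen with earlier results of these data known. Named are *Mki67*, *Top2a*, *Diaph3*, *Pola1*, *Cenpp*, members called in a comparison, the 3 members with most UMIs in microglia or precursor cells, and up to 6 called genes per comparison of 2 further cycle lists. Values of other genes given beside them were chosen after they were seen. Some genes, and single results that name them, are not reported here. Alternatives were RLE in place of TMM, no filter, DESeq2, 5% mitochondrial UMIs, Scrublet, other limits on contaminants, replicate blocks, other numbers of core genes, thinning to 1000 UMIs and leaving out each mouse.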

Additional observations from a re-analysis of the deposited data

Results flagged for a closer look

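In 107 groups of 6 libraries the highest or lowest library was compared with the rest, and 10 stood apart by Dixon's criterion. For normally distributed values chance alone would give 5.35 (about 1 in 20 groups). Some groups held counts near 0, so the 10 were not shown to be an excess. Deep brain microglia of control 5 had 46.8 CPM of *Smc4*, with the next control at 22.8. In cortical microglia *Knl1* was at 1.69 CPM in control 5 and at 0 in the other controls. *Anln* in cortical microglia was at 19.9 CPM in mutant 2 (next 5.94) and at 24.1 in control 6 (next 6.75). In precursor cells *Brip1* was at 12.6 CPM in the deep brain of control 4 (next 5.66), and *Diaph3* was at 224 CPM in the cortex of control 4 (next 135). *Smc4* was lowest in cortical precursor cells of mutant 1 with 10.3 CPM (next 27.4). The share of nuclei with 3 or more core genes was 1.47% in cortical microglia of mutant 1 (1 of 68, next 0.515%). It was 0.316% in those of control 5 (1 of 316, with 0% in the other controls). In cortical precursor cells of control 1 it was 9.09% (2 of 22, next 3.23%). Of the 10 values 8 came from the cortex, where libraries held as few as 16 precursor nuclei and 32 microglia.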

How the results depend on the processing

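In deep brain microglia the number of members called was 0 and became 1, *Rad51b*, with no filter, with DESeq2, without Scrublet doublets, with contaminants removed at 1 UMI and without nuclei with 3 or more core genes, and 0 to 1 when a mouse was left out. In cortical microglia it was 1 in all 21 alternatives. In precursor cells, oligodendrocytes and astrocytes it was 0 between genotypes in every alternative run. Between regions of controls the count in microglia became 3 with no filter (*Diaph3*, *Mki67* and *Prc1*). In precursor cells the count of 8 became 3 with DESeq2, 3 with no replicate block, 2 without nuclei with 3 or more core genes, and 2 to 9 when a mouse was left out. For region by genotype the count in precursor cells became 1 with no filter (*Knl1*). The mutant minus control share in cortical microglia was -0.305 percentage points at 2 core genes, and in deep brain precursor cells 0.0484 after thinning. In cortical precursor cells it turned from 1.07 to -0.931 at 4 core genes, to -0.624 after thinning and to -0.140 without mutant 2, less than the SD between mice in each case. The causes were not tested. *Cenpp* in deep brain microglia reversed to 0.33 with contaminants at 1 UMI. When a mouse was left out, log2 fold changes in deep brain precursor cells ran from -0.13 to 0.31 for *Mki67*, from -0.15 to 0.23 for *Top2a* and from -0.18 to 0.05 for *Diaph3*.

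Same-numbered mutants and controls share a number and, for numbers 1 to 4, an age, while the ages of numbers 5 and 6 are crossed between genotypes, and their deviations correlated at -0.20 to 0.50, with 1 to 5 of 6 pairs above 0.1 in a class. In cortical microglia 5 of 6 numbers correlated best with their own. A replicate block between genotypes left the members called at 0 in deep brain microglia (*Rad51b* 1.10, edgeR adjusted p = 0.116) and at 1 in the cortex, and changed no other call of a member. It moved the count of all genes called from 16 to 45 in cortical microglia and from 112 to 624 in cortical oligodendrocytes. Scrublet called 29.3% of 1 cortical library and 0.0332% of another, so its alternatives were not run for the cortex, the regions or the interaction. The alternatives without nuclei with 3 or more core genes or without the Lpl-high group, and those leaving out a control between regions, were chosen after seeing the data. The core genes are limited, since none passed the filter in microglia, and so are cortical precursor cells, with 16 to 261 nuclei per library.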

Other observations

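The highest share of nuclei with mitotic genes lay outside the glia. Among 145 cortical nuclei of the neuroblast class (90 from mutants and 55 from controls, in 12 libraries) 31 had 3 or more core genes, and these came from 7 libraries, with 15 from mutant 5, 9 from control 5 and 1 to 3 from each of the other 5. The class was found in the cortex, whose dissection took in the hippocampus. It had 864 CPM of *Egfr*, 560 of *Dcx*, 109 of *Dlx2* and 2.98 of *Eomes*, and the place these nuclei came from was not tested. In the 31 nuclei all 18 other members and 78 of 81 other cycle genes were higher than in the 96 neuroblasts without a core gene, with 5866 against 757 CPM and 10528 against 1203 CPM summed. Their markers differed as well. Astrocyte markers summed to 3052 against 1482 CPM and markers of neurons to 858 against 2898.

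Small immune classes held a few such nuclei too. In the deep brain 3 of 38 B cells (7.89%, exact 95% interval 1.66 to 21.4) and 2 of 126 T cells (1.59%, 0.193 to 5.62) had 3 or more core genes, and so did 2 of 83 cortical macrophages (2.41%, 0.293 to 8.43). None of 197 deep brain macrophages did, which allows a share of up to 1.52%. Of 674 endothelial cells of the deep brain none did (up to 0.445%), although this class had the highest level of 7 members among the 6 classes ranked, such as *Mcm4*, *Mcm6* and *Rrm1*, which serve DNA synthesis, and *Smc2* and *Smc4*. These intervals and limits cover counting error only. The endothelial levels pool 1798352 UMIs of all libraries, with 24 to 80 nuclei in each, and were not set against the SD between libraries.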
